A study of Mus musculus with 12 samples.

Results

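The genes described here are those with which early B cells cut and join their immunoglobulin genes and assemble the pre-B cell receptor. They were taken as a list of 10 named genes, Rag1, Rag2, Dntt, Igll1, Vpreb1, Vpreb2, Vpreb3, Il7r, Il2ra and Blnk, and all 10 were found among the 21853 genes of the deposited expression table. The data are RNA-sequencing profiles of whole bone marrow from B6 mice, with 12 libraries in 4 groups of 3. Control mice were not irradiated. Mice of the TBI group received 5 Gy of total body irradiation with gamma rays at 0.66 Gy per minute and were gavaged with 100 µL of olive oil. Mice of the TBI+DEIX group were irradiated in the same way and given deinoxanthin, a carotenoid pigment of the radiation-resistant bacterium Deinococcus radiodurans, at 25 mg/kg each day, and mice of the DEIX group received deinoxanthin without irradiation. Dosing ran for 14 days and marrow was taken 14 days after irradiation. The labels used here name no vehicle for the control group, so in comparisons with control the treatment cannot be told apart from the dosing itself, and they do not say whether the libraries of a group came from separate mice, so p-values measure the spread between these libraries.

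A developing B cell builds its receptor in steps. The RAG1 and RAG2 proteins together cut DNA at recombination signals beside the V, D and J segments, and terminal transferase, the product of Dntt, adds bases without a template to the ends before they are joined. A heavy chain made in this way is tested with the surrogate light chain, formed from the λ5 protein (Igll1) and a VpreB protein (Vpreb1 or Vpreb2). Signals of this pre-B cell receptor pass through the adaptor BLNK, while the interleukin-7 receptor (Il7r) drives growth of the same cells. Il2ra encodes CD25, a surface protein of small pre-B cells and also of regulatory T cells.

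In the GRCm38 build the genes lie on chromosomes 2, 10, 15, 16 and 19, and 6 of them form near pairs. Rag1 (chromosome 2, 101638282 to 101649501, minus strand) and Rag2 (101624718 to 101632529, plus strand) converge with 5752 bases between their ends. Igll1 (chromosome 16, 16860671 to 16863985, minus strand) is 4417 bases from Vpreb1 (16868403 to 16870843, minus strand), while Vpreb2 stands farther along chromosome 16 (17980428 to 17981273, plus strand). Blnk (chromosome 19, 40928927 to 40994535, minus strand) is 34739 bases from Dntt (41029275 to 41059525, plus strand). Vpreb3 is on chromosome 10 (75943057 to 75949657, plus strand), Il7r on chromosome 15 (9505788 to 9530176, minus strand) and Il2ra on chromosome 2 (11642807 to 11693193, plus strand). All are protein-coding genes, and each value below is summed over a whole gene.

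The promoter windows of 4 of the genes are shown because their transcripts stood in different proportions in irradiated and unirradiated marrow. Each runs from 250 bases before to 50 bases after the RefSeq start on GRCm38.p6, 5′ to 3′ on the gene's own strand. Capitals mark every match, on either strand, to CAGGTG (an E-box of the type bound by E2A), CCCNNGGG (EBF1), TGGGAA (Ikaros), TGTGGT (Runx), ATGCAAAT (the octamer) or TGTTTAC (Foxo), and no 2 matches overlapped in these windows.
Rag1 (chr2:101649483-101649782, minus strand): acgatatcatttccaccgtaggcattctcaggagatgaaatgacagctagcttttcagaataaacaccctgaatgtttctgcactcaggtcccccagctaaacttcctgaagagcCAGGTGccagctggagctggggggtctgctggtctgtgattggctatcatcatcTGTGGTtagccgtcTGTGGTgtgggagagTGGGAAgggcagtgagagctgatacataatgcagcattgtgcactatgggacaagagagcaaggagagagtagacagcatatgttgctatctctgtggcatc
Igll1 (chr16:16863936-16864235, minus strand): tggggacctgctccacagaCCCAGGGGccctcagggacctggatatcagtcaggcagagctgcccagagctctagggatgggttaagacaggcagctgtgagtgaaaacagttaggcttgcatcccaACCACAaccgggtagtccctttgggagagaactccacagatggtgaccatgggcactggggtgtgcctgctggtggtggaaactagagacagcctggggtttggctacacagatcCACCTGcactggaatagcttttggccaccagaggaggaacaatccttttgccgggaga
Vpreb1 (chr16:16869206-16869505, minus strand): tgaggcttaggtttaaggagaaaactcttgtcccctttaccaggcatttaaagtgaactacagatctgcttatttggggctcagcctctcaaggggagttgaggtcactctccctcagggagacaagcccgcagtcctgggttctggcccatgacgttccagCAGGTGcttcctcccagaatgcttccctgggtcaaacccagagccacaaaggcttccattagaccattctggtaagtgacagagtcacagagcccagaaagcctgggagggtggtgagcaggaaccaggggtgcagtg
Vpreb2 (chr16:17980315-17980614, plus strand): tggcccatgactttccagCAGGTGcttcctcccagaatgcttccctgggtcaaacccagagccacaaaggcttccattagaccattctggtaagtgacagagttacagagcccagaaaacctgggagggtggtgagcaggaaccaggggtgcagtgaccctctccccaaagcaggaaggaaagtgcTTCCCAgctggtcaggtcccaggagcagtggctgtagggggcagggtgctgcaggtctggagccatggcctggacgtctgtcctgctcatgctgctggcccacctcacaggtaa

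CAGGTG or its complement stood in the windows of Rag1, Igll1, Vpreb1, Vpreb2 and Blnk, 5 of 10 members, and in 20.2% of all 32851 RefSeq promoter windows of this length. CCCNNGGG stood in that of Igll1 alone among the members and in 13.7% of all windows, TGGGAA in those of Rag1 and Vpreb2 (25.6% of all) and TGTGGT in those of Rag1, Igll1, Vpreb3 and Il7r (16.8% of all). TGTTTAC was in no member's window and in 3.65% of all. The octamer was the rarest of the letters with a match in a member, with 1.74% of all windows. Vpreb3 and Blnk held it in the orientation ATTTGCAT, 45 and 130 bases before the RefSeq start, at places inside the gene spans given above. A 60-base stretch around each, with only the octamer in capitals, reads as follows.
Vpreb3 (chr10:75948229-75948288, plus strand): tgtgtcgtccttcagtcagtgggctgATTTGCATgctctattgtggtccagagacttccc
Blnk (chr19:40994318-40994377, minus strand): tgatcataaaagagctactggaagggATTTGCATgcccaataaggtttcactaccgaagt

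The windows of Vpreb1 and Vpreb2 share a stretch of 156 bases that is 98.1% identical, placed differently with respect to the RefSeq starts used. The Vpreb1 window lies inside the gene span given above. That of Vpreb2 reaches past the first base of its span, 17980428, and its TTCCCA lies within the span. The difference in placement therefore depends on the start used. The transcripts themselves are 97.4% identical over 759 bases, with an unbroken identical run of 196 bases. How the authors' counting divided reads between this pair is not given in the sources used here, so the level of each and their ratio are uncertain. Whether Igll1 shares such stretches with other genes was not examined. Rag1 overlaps the gene B230118H07Rik on the same strand, and that gene stood at 3.53 to 10.1 FPKM. Il2ra overlaps the gene Gm37881 on the same strand, whose level was not examined.

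Expression was deposited as FPKM, fragments per kilobase of transcript scaled to the mapped fragments of a library, which is a level per length and allows genes to be set side by side. In control marrow Vpreb3 was the most abundant member, with 141 ± 23.6 FPKM (SD, n = 3). Igll1 (37 ± 1.59), Vpreb1 (35.6 ± 3.18), Dntt (31.3 ± 2.12) and Rag1 (26.1 ± 4.81 FPKM) followed, and the libraries of neighbours in that order overlapped. Blnk (19.2 ± 1.62) and Il7r (18.1 ± 2.92 FPKM) overlapped each other below Rag1, Rag2 stood at 6.89 ± 0.852 FPKM, and Il2ra (4.19 ± 0.31) and Vpreb2 (4.06 ± 0.217 FPKM) were lowest and overlapped. Every member was thus detected in every control library. As a check of the tissue, 8 neutrophil genes summed to 21831 to 50654 FPKM and 8 erythroid genes to 195 to 5861 FPKM over the 12 libraries, and no gene of either list was at 0 in any library. The neutrophil genes Ngp, S100a8 and S100a9, which are outside that list, were listed at 0 in 5, 2 and 4 libraries and at high levels in the others. The files hold no counts. The size of the smallest steps between low values gave an estimate of the depth in units of 1e+06 fragments, from 21.2 to 54.6, with the TBI+DEIX libraries (21.2, 32.6 and 27.5) among the shallowest. At that depth the lowest values rest on few fragments, about 9 for Vpreb1 and 4 for Vpreb2 in TBI+DEIX replicate 1. In DEIX replicate 1 they were about 23 for Vpreb1 and 4 for Vpreb2, whose 0.19 FPKM there was its lowest value of all 12 libraries, so the DEIX values and ratios of Vpreb2 carry the same limit.

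**Figure D1:**
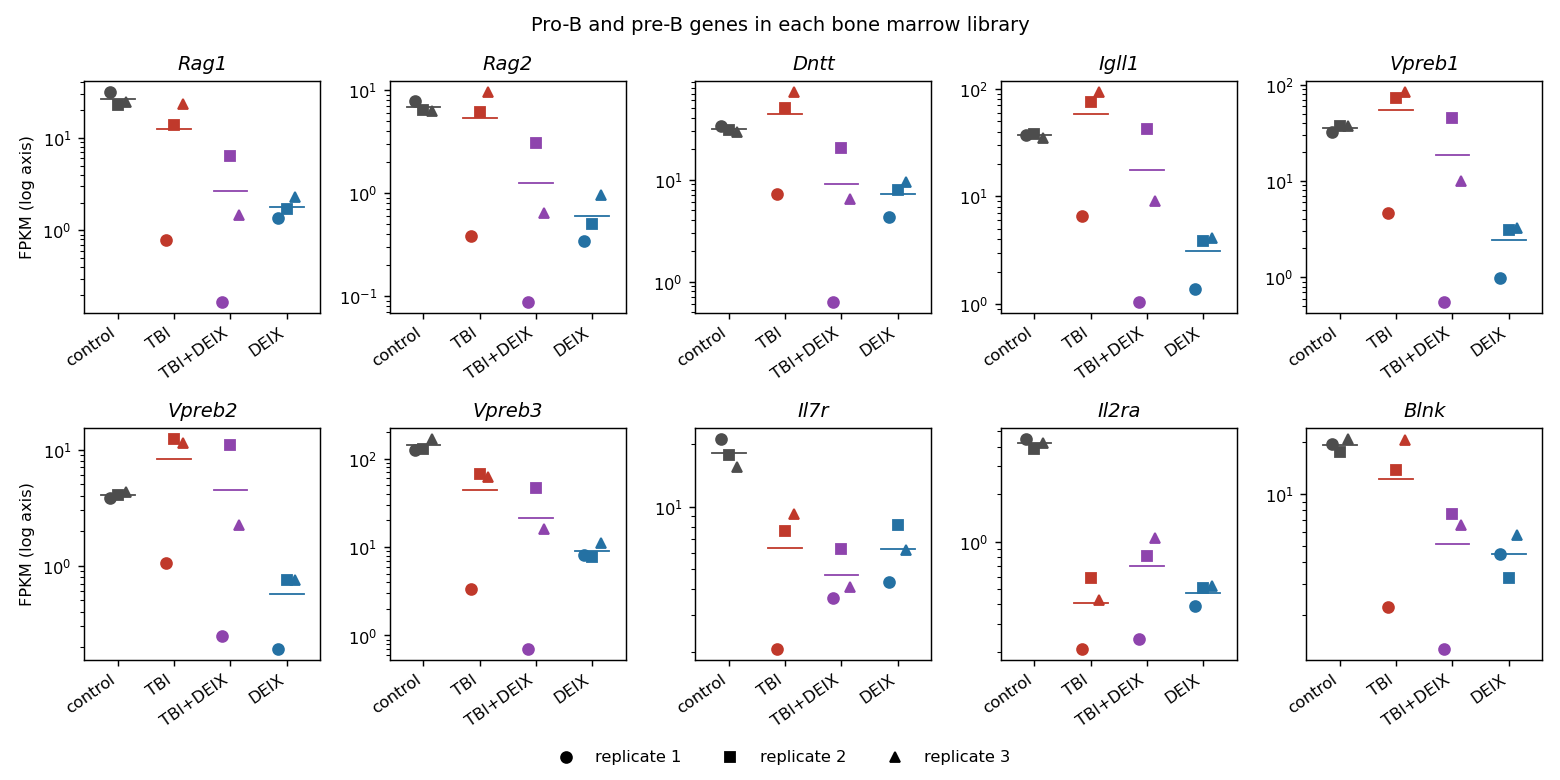
Level of each of the 10 genes in every library in FPKM on log axes whose ranges differ between panels, with 1 point a library, the marker shape giving the replicate number and the line the mean of the 3 libraries of a group. The control libraries lie close together, the DEIX libraries lie below them in all 10 panels, and replicate 1 is the lowest of the TBI and of the TBI+DEIX libraries in all 10.

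Summed over the members, the control libraries held 316, 309 and 345 FPKM and the DEIX libraries 25.9, 37.6 and 44.6 FPKM. The TBI libraries held 28.4, 321 and 389 FPKM and the TBI+DEIX libraries 8.56, 190 and 57.5 FPKM. Libraries of 1 irradiated group thus differed more than 10-fold in these transcripts, while the control libraries lay close together. TBI+DEIX replicate 1 also stood apart outside the members. It had the lowest estimated depth, and limma's array weight, which is small for a library far from the rest of its group, was 0.0709 for it and 0.448 to 11 for the other 11. In such bulk samples fewer cells of a type and less RNA per cell cannot be told apart.

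Changes were fitted with limma on log2(FPKM + 1) over the 10994 genes with at least 1 FPKM in at least 3 libraries, and a gene counts as called where its p, adjusted over all of them by the Benjamini-Hochberg method, was under 0.05. All 10 members passed this filter. Il2ra reached 1 FPKM only in the 3 control libraries and TBI+DEIX replicate 3, so it passed through the group in which it is high. Fold changes on this scale understate those of low genes such as Il2ra, Rag2 and Vpreb2.

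The recombinase genes had their lowest means in the groups given deinoxanthin. Rag1 stood at 31.6, 22.6 and 24.1 FPKM in control, 0.795, 13.9 and 23 FPKM in TBI, 0.168, 6.43 and 1.45 FPKM in TBI+DEIX and 1.35, 1.7 and 2.28 FPKM in DEIX. Every TBI+DEIX and DEIX library lay below every control library, whereas TBI replicate 3 lay within the control range. The log2 change against control was -3.29 ± 0.84 (SE) in DEIX (limma, adjusted p = 0.0411) and -3.28 ± 0.84 in TBI+DEIX (adjusted p = 0.0142), so Rag1 fell in both. In TBI it was -1.64 ± 0.84 and was not called (adjusted p = 0.338), and with 1 library left out it ran from -2.38 to -0.51. The DEIX call was lost in 11 of 20 other settings, including without any 1 of the control or of the DEIX libraries (adjusted p 5.66e-05 to 0.14 over all settings), and the TBI+DEIX call held in all 20.

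Rag2, the partner subunit, stood at 7.86, 6.5 and 6.29 FPKM in control, 0.385, 6.13 and 9.74 FPKM in TBI, 0.087, 3.05 and 0.647 FPKM in TBI+DEIX and 0.344, 0.497 and 0.962 FPKM in DEIX. TBI replicate 3 was the highest of all 12 libraries and the DEIX libraries were all under 1 FPKM. Rag2 fell in TBI+DEIX against control by 2.02 ± 0.65 (limma, adjusted p = 0.0372), a call that was lost in 8 of 19 other settings. Its change in DEIX, -2.31 ± 0.65, missed the threshold (adjusted p = 0.0564).

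Dntt stood at 33.6, 30.8 and 29.4 FPKM in control, 7.2, 50.7 and 73.3 FPKM in TBI, 0.629, 20.4 and 6.4 FPKM in TBI+DEIX and 4.33, 7.98 and 9.49 FPKM in DEIX. The TBI libraries straddled the control range, with replicate 1 below it and the other two above it. Every TBI+DEIX and DEIX library was below every control library. Neither change passed the test, with -2.34 ± 0.90 in TBI+DEIX (limma, adjusted p = 0.0705) and -2.02 ± 0.90 in DEIX (adjusted p = 0.191).

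The surrogate light chain genes spread widely after irradiation. Igll1 stood at 37.5, 38.3 and 35.2 FPKM in control, 6.51, 74.9 and 94.2 FPKM in TBI, 1.04, 42 and 9.15 FPKM in TBI+DEIX and 1.38, 3.85 and 4.12 FPKM in DEIX. The DEIX mean was 8.43% of the control mean, and the TBI mean of 58.5 ± 46.1 FPKM hid a library far below control and 2 libraries far above it. No change of Igll1 passed the test: -3.28 ± 1.06 in DEIX (limma, adjusted p = 0.0845), -1.98 ± 1.06 in TBI+DEIX (adjusted p = 0.181) and 0.00 ± 1.06 in TBI (adjusted p = 0.998), the last with a 95% confidence interval of -2.33 to 2.32. Without TBI replicate 1 the TBI value became 1.16, also not called.

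Vpreb1 went with Igll1, at 32, 37.5 and 37.4 FPKM in control, 4.69, 73.7 and 85 FPKM in TBI, 0.552, 45.6 and 10.1 FPKM in TBI+DEIX and 0.984, 3.11 and 3.26 FPKM in DEIX. Vpreb2 stood at 3.84, 4.07 and 4.27 FPKM in control, 1.05, 12.4 and 11.3 FPKM in TBI, 0.249, 11 and 2.24 FPKM in TBI+DEIX and 0.19, 0.756 and 0.748 FPKM in DEIX. For both, TBI replicates 2 and 3 and TBI+DEIX replicate 2 lay above every control library and all DEIX libraries lay below. Their changes in DEIX were -3.48 ± 1.17 for Vpreb1 (limma, adjusted p = 0.0944) and -1.72 ± 0.79 for Vpreb2 (adjusted p = 0.207), and neither gene was called in any comparison.

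Vpreb3, whose product binds newly made heavy chains and is no part of the surrogate light chain, was below control in every treated library. It stood at 125, 130 and 168 FPKM in control, 3.35, 67.1 and 62.1 FPKM in TBI, 0.699, 46.9 and 15.9 FPKM in TBI+DEIX and 8.12, 7.78 and 11.2 FPKM in DEIX. This holds also for the TBI libraries in which Igll1 and Vpreb1 were above control. Vpreb3 fell in TBI+DEIX against control by 3.66 ± 1.17 (limma, adjusted p = 0.0355), a call lost in 7 of 20 other settings, among them leaving out TBI+DEIX replicate 1 or 3 or any control library. The changes of -3.83 ± 1.17 in DEIX (adjusted p = 0.0709) and -2.41 ± 1.17 in TBI (adjusted p = 0.306) were not called.

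Of the receptors, Il7r stood at 21.3, 17.7 and 15.5 FPKM in control, 2.06, 7.67 and 9.19 FPKM in TBI, 3.63, 6.28 and 4.12 FPKM in TBI+DEIX and 4.36, 8.18 and 6.17 FPKM in DEIX. All treated libraries lay below all control libraries, and the 3 treated groups overlapped one another. Il7r fell against control by 1.77 ± 0.39 in TBI+DEIX (limma, adjusted p = 0.00652), 1.55 ± 0.39 in TBI (adjusted p = 0.0492) and 1.43 ± 0.39 in DEIX (adjusted p = 0.0496). The first call held in all 20 other settings. The TBI call was lost in 15 of 20 (adjusted p 0.000469 to 0.166), including without any 1 of the control or DEIX libraries, and the DEIX call in 13 of 20 (adjusted p 0.00105 to 0.184).

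Il2ra was the one member that fell in all 3 comparisons under every setting in which it was tested. It passed the filter through its control values and was not tested with a mean of at least 5 FPKM. It stood at 4.49, 3.87 and 4.23 FPKM in control, 0.208, 0.584 and 0.425 FPKM in TBI, 0.241, 0.809 and 1.05 FPKM in TBI+DEIX and 0.392, 0.506 and 0.522 FPKM in DEIX. Treated libraries lay far below control libraries and overlapped one another, and the group means were 9.67%, 16.7% and 11.3% of the control mean in TBI, TBI+DEIX and DEIX. The fitted changes were -1.89 ± 0.17 in TBI (limma, adjusted p = 0.000245), -1.64 ± 0.17 in TBI+DEIX (adjusted p = 0.000214) and -1.82 ± 0.17 in DEIX (adjusted p = 0.000912). Over the other settings the adjusted p ran from 1.51e-07 to 0.00385 in TBI, 1.3e-06 to 0.0047 in TBI+DEIX and 1.57e-05 to 0.0119 in DEIX. In TBI replicates 2 and 3, where the surrogate light chain genes were above control, Il2ra was under 1 FPKM.

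CD25 and the interleukin-7 receptor are also made by T cells, whose markers are therefore given beside them. The 16 T and NK cell genes summed to 161 to 197 FPKM in control, 102 to 141 in TBI, 56.5 to 151 in TBI+DEIX and 136 to 195 FPKM in DEIX, and 3, 4 and 0 of the 11 tested fell in TBI, TBI+DEIX and DEIX. Foxp3, which defines regulatory T cells, stood at 0.1 to 0.435 FPKM over the 12 libraries, and Ptcra, the partner of the early T cell receptor, at 0 to 0.0334 FPKM. Of the mature B cell genes 9, 10 and 7 of 12 fell in TBI, TBI+DEIX and DEIX. The shares of all genes called lower in these comparisons were 3.1%, 13.1% and 2.72%. Without TBI+DEIX replicate 1 the T and NK counts were 10, 4 and 6, beside 7.2%, 15.3% and 8.48% of all genes. Without TBI replicate 1 they were 0, 4 and 0, beside 1.55%, 12.8% and 3.27% of all genes. The part of either cell type in the Il2ra and Il7r values was not tested.

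Blnk stood at 19.4, 17.5 and 20.8 FPKM in control, 2.2, 13.7 and 20.5 FPKM in TBI, 1.26, 7.63 and 6.55 FPKM in TBI+DEIX and 4.49, 3.26 and 5.75 FPKM in DEIX. It fell in TBI+DEIX against control by 1.93 ± 0.64 (limma, adjusted p = 0.0411), a call lost in 10 of 20 other settings. The change of -1.90 ± 0.64 in DEIX was not called (adjusted p = 0.0948), although no DEIX library reached the control range.

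**Figure D2:**
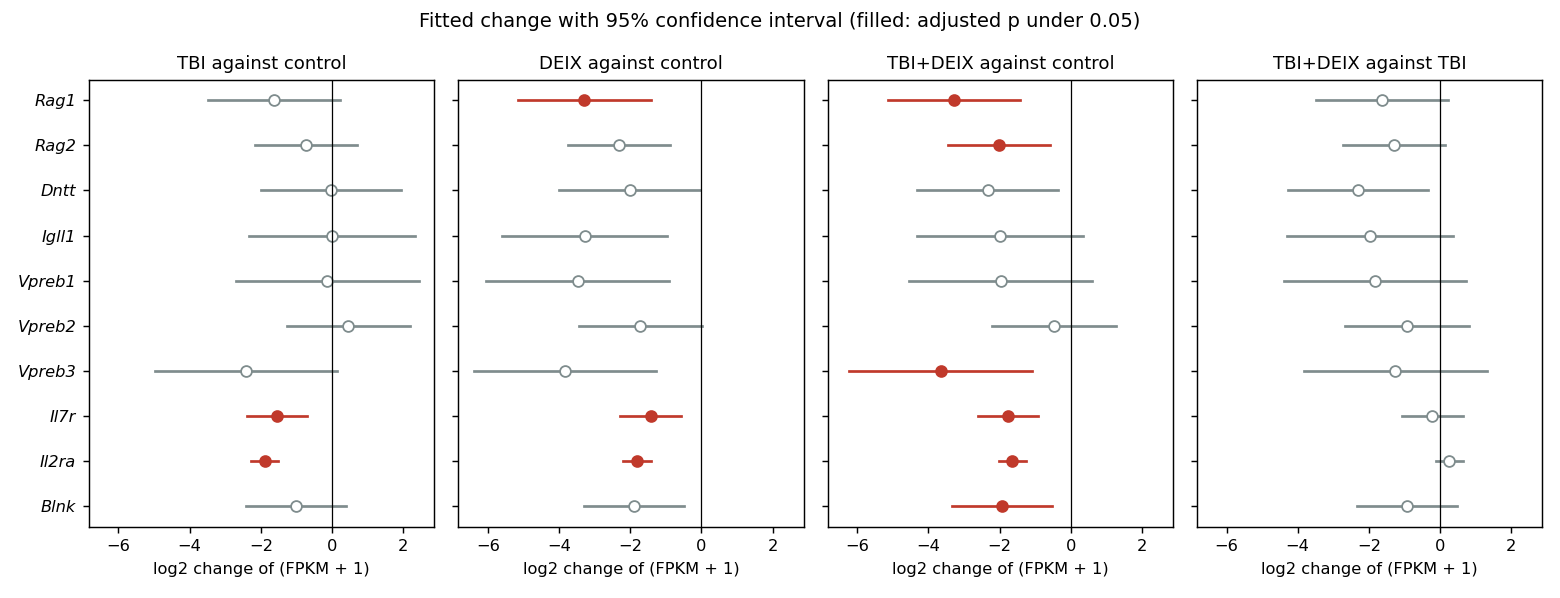
Fitted log2 change of (FPKM + 1) for each gene in 4 comparisons, with the 95% confidence interval as a line, filled circles for adjusted p under 0.05. Intervals are narrow for Il2ra and Il7r and several log2 units wide for the surrogate light chain genes, and no gene is called in TBI+DEIX against TBI.

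Counted together, 2 of 10 members fell in TBI against control, where 3.1% of all tested genes were called lower, and 3 of 10 did not overlap with control. In DEIX against control 3 of 10 fell against a background of 2.72%, and all 10 lay below control without overlap, as did 17.2% of all tested genes, and 9 of 10 had an unadjusted p under 0.05, beside 24.7%. In TBI+DEIX against control 6 of 10 fell against 13.1%. Without overlap stood 7 of 10 there, beside 21.1% of all genes, and 16.3% in TBI. No member rose in any of the 3, where 0.891%, 4.52% and 16.9% of all genes were called higher in TBI, DEIX and TBI+DEIX. With array weights Vpreb2 was called higher in TBI, at 1.13 (adjusted p = 0.0313), and over its other settings the adjusted p ran from 0.422 to 0.996. The median log2 change of the members was -0.87 in TBI, -2.17 in DEIX and -1.98 in TBI+DEIX, beside 0.05, 0.02 and 0.02 over all tested genes, and the 3 comparisons share the control libraries. The TBI median depends on TBI replicate 1. Without that library Rag2, Dntt, Igll1 and Vpreb1 turned positive and Vpreb2 stayed so, while Rag1, Vpreb3, Il7r, Il2ra and Blnk stayed negative.

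Markers of other cell types were read in the same comparison of TBI+DEIX with control, where 13.1% of all genes were called lower and 16.9% higher. Of 8 erythroid genes 6 fell, with a median of -2.19, of 7 lymphoid progenitor genes 5 fell and 1 rose, with a median of -1.27, and of 8 neutrophil genes 1 fell and 3 rose. The single neutrophil fall and the single progenitor rise are near the shares of all genes. Without TBI+DEIX replicate 1 the erythroid falls numbered 2, the progenitor falls 5 and the neutrophil rises 5, beside 15.3% of all genes lower and 23.2% higher, and the summed levels of the erythroid genes were 2522 to 4107 FPKM in control and 195 to 1241 FPKM in TBI+DEIX. In TBI and in DEIX against control no erythroid or neutrophil gene of these lists was called. The part of these differences in the members' values was not tested.

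The DEIX count varied between settings. With only the DEIX and control libraries in the fit all 10 members were called lower, beside 7.78% of all genes, and with 1 library left out the count ran from 1 to 8. It was 8 without TBI replicate 1 or without TBI+DEIX replicate 1, libraries that enter this comparison only through the shared estimate of spread, beside 3.27% and 8.48% of all genes called lower, and it was 1 without any control library, TBI replicate 2, TBI+DEIX replicate 3, or DEIX replicate 1 or 3, settings in which 0.691% to 2.63% of all genes were called lower. The TBI+DEIX count was 3 without any 1 control library, beside 7.56% to 8.68% of all genes, and 3 without TBI+DEIX replicate 1, beside 15.3%. It was at most 8, without TBI+DEIX replicate 2, beside 13%.

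Deinoxanthin in irradiated mice was examined by setting TBI+DEIX against TBI. None of the 10 members was called by limma, beside 8.1% of all tested genes called in either direction, and 1 (Dntt) had an unadjusted p under 0.05, beside 27.2%. Every member's libraries overlapped between these groups, whereas 12.7% of all genes lay lower and 14.5% higher without overlap. The log2 changes ran from -2.31 ± 0.90 for Dntt (adjusted p = 0.126) to 0.25 ± 0.17 for Il2ra (adjusted p = 0.386), and 9 of 10 were negative, with a median of -1.27 against 0.00 over all genes. The 95% confidence intervals of most were wide, from -4.30 to 0.35 for Igll1 and from -3.49 to 0.21 for Rag1, and both hold 0. That of Dntt, -4.28 to -0.34, does not hold 0 although the gene was not called, and that of Il2ra was narrow, -0.13 to 0.63. Without TBI replicate 1, the lowest of its group, 3 members (Rag1, Rag2 and Dntt) were called lower, beside 3.04% of all genes. Without TBI+DEIX replicate 1 the count was 1 (Il2ra, higher), under the 16.2% of all genes called higher. It was 1 (Dntt, lower) without TBI+DEIX replicate 2, beside 3.94% of all genes.

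Irradiation in mice given deinoxanthin was examined by setting TBI+DEIX against DEIX. None of the members was called and none had an unadjusted p under 0.05 (limma), beside 2.57% of all genes called and 16.2% with such a p. All 10 overlapped, while 8.96% of all genes lay lower and 8.72% higher without overlap. Igll1 was 1.30 ± 1.06, Vpreb1 1.51 ± 1.17 and Vpreb2 1.24 ± 0.79 log2 units higher in the fit, and Rag1 was at 0.01 ± 0.84. With 1 library left out Igll1 ran from 0.22 to 2.42, Vpreb1 from 0.35 to 2.80 and Vpreb2 from 0.38 to 2.02.

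The test of the interaction asks whether the effect of deinoxanthin differed between irradiated and unirradiated mice. Il2ra was called, at 2.07 ± 0.25 (limma, adjusted p = 0.0142), beside 0.2% of all genes: in unirradiated mice its change with deinoxanthin was -1.82, and in irradiated mice, where it was already low, 0.25. This is a statement on the log scale with a pseudocount of 1, and with a pseudocount of 0.1 the value was 3.47 and no longer called (adjusted p = 0.0877). No other member was called, and Il7r came nearest with 1.21 ± 0.55 (adjusted p = 0.659). Both were under 0.05 before adjustment, as were 7.5% of all genes.

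Because total levels differed so much between libraries of a group, the members were also set against one another within each library, as ratios of FPKM, which do not depend on the scaling of a library. This comparison was chosen after the values were seen, and all 45 pairs of members were taken. For each pair the log2 ratios of the 6 irradiated libraries (TBI and TBI+DEIX) were compared with those of the 6 others, and those of the 6 libraries with deinoxanthin with the 6 without, by a two-sided exact permutation test over 924 regroupings, whose smallest possible p is 0.00216. The regroupings were made over all 12 libraries and took no account of the other treatment. The 90 p-values were adjusted together by the Benjamini-Hochberg method.

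Irradiated marrow held more surrogate light chain transcript for each Rag1 transcript. The ratio of Igll1 to Rag1 was 1.19, 1.69 and 1.46 in control and 1.02, 2.27 and 1.81 in DEIX. It was 8.18, 5.4 and 4.1 in TBI and 6.23, 6.53 and 6.33 in TBI+DEIX. All 6 irradiated libraries lay above all 6 others, among them TBI replicate 1 and TBI+DEIX replicate 1, which held the least of both genes in their groups. The value of TBI+DEIX replicate 1 rests on only about 19 fragments of Igll1 and 23 of Rag1. In the ratios below, that library has about 6 fragments of Rag2 and 9 of Vpreb3. The log2 ratio of Rag1 to Igll1 was lower by 1.98 in irradiated libraries (exact permutation test, adjusted p = 0.0216), by 1.98 within the pair of groups without deinoxanthin and by 1.98 within the pair with it.

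Rag2 showed the same direction to a smaller degree. The ratio of Igll1 to Rag2 was 4.77, 5.88 and 5.6 in control, 16.9, 12.2 and 9.66 in TBI, 12, 13.8 and 14.1 in TBI+DEIX and 4.01, 7.75 and 4.29 in DEIX, with no overlap between irradiated and unirradiated libraries. Accordingly the 2 recombinase genes shifted against each other. Rag1 over Rag2 was 4.02, 3.48 and 3.83 in control, 2.07, 2.26 and 2.36 in TBI, 1.93, 2.11 and 2.24 in TBI+DEIX and 3.93, 3.42 and 2.37 in DEIX. The irradiated libraries were lower by 0.68 on the log2 scale (exact permutation test, adjusted p = 0.0216), though DEIX replicate 3 with 2.37 nearly touched their highest value, 2.36, and the value of TBI+DEIX replicate 1 rests on about 23 and 6 fragments.

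Vpreb3 was likewise low for the amount of surrogate light chain transcript after irradiation. The ratio of Igll1 to Vpreb3 was 0.3, 0.293 and 0.209 in control, 1.94, 1.12 and 1.52 in TBI, 1.49, 0.895 and 0.577 in TBI+DEIX and 0.17, 0.495 and 0.367 in DEIX. Irradiated libraries were higher by 2.02 on the log2 scale without overlap (exact permutation test, adjusted p = 0.0216), and the ratio of Vpreb1 to Vpreb3 was also higher by 2.02. The ratio of Igll1 to Vpreb1 stayed between 0.906 and 1.89 over all 12 libraries and differed by 0.00 (exact permutation test, adjusted p = 0.998). That of Rag1 to Vpreb3 ran from 0.0911 to 0.37 and differed by 0.04 (exact permutation test, adjusted p = 0.951).

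**Figure D3:**
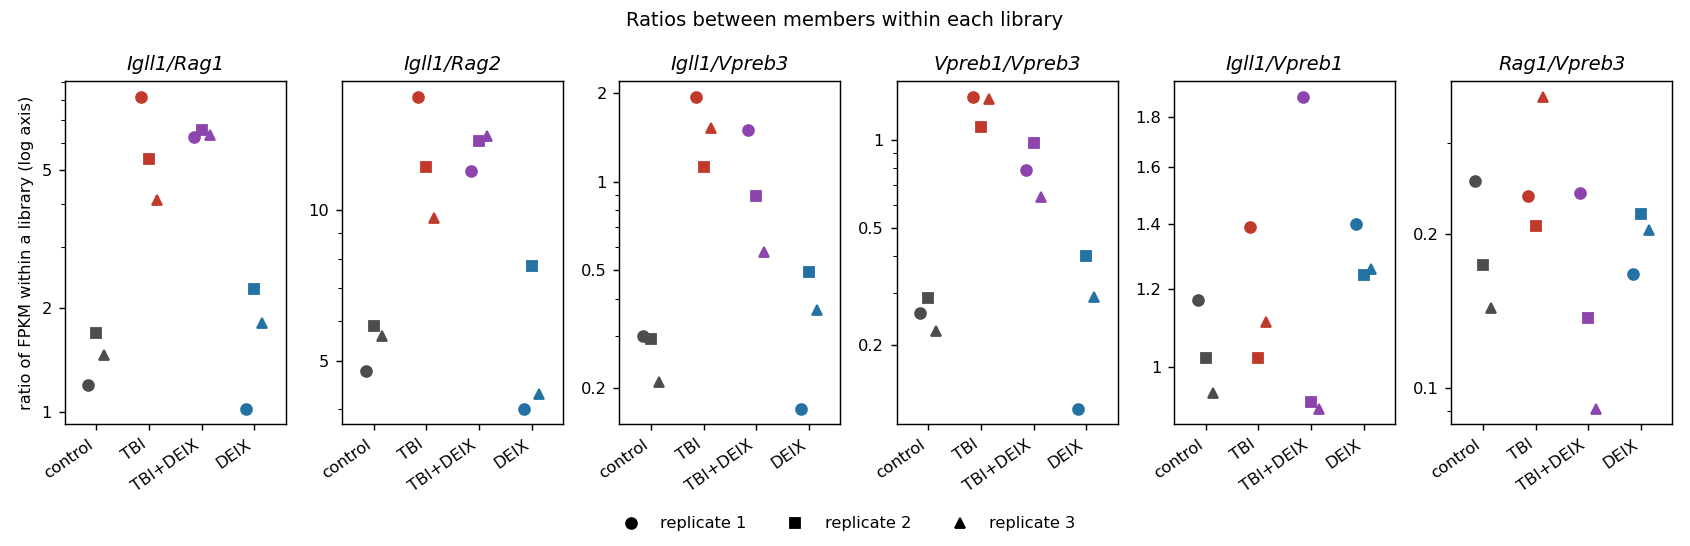
Ratio of FPKM within each library for 6 pairs of genes, on log axes whose ranges differ between panels, with 1 point a library. In the first 4 panels all irradiated libraries (TBI, TBI+DEIX) lie above all unirradiated ones, while for Igll1 over Vpreb1 and Rag1 over Vpreb3 the groups overlap.

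Of the 45 pairs, 11 passed the adjusted threshold for irradiation (16 at an unadjusted p under 0.05), and 9 of the 11 did not overlap. Over all 60110130 pairs of the 10965 tested genes above 0 FPKM in every library, 5.38% had an unadjusted p as low as the 11 called (at most 0.00433), 19.5% had one under 0.05 and 3.6% did not overlap. The corresponding shares of the 45 pairs were 24.4%, 35.6% and 20%, though these pairs share 10 genes and were chosen with earlier results known, so that the shares are a description. In 10 of the 11 one gene was of the surrogate light chain, the other pair being Rag1 with Rag2. Many of all 45 pairs hold such a gene, however, and most of these 10 hold Vpreb1 or Vpreb2, whose reads may be shared. The pairs that stayed called with a pseudocount of 0.1 and without any 1 library numbered 8, and the count ran from 9 to 17 over the libraries left out, 17 being without TBI+DEIX replicate 1. For deinoxanthin 2 pairs passed, Rag1 over Il7r (lower by 2.28, adjusted p = 0.0325) and Vpreb1 over Vpreb2 (lower by 0.85, adjusted p = 0.045, a pair whose reads may be shared), with no pair free of overlap. These 4.44% lie under the 11.2% of all gene pairs with an unadjusted p as low (at most 0.00649), the 24.4% of member pairs with an unadjusted p under 0.05 lie under the 31.5% of all gene pairs, and 4.72% of all gene pairs did not overlap. That count ran from 0 to 11 over the libraries left out, being 11 without TBI+DEIX replicate 2 and 0 without any control library.

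The pair of Dntt with Igll1 passed neither test (exact permutation test, adjusted p = 0.127 for irradiation and 0.438 for deinoxanthin). The ratio of Dntt to Igll1 was 3.13, 2.07 and 2.3 in DEIX, 0.896, 0.804 and 0.835 in control, 1.11, 0.677 and 0.779 in TBI and 0.603, 0.485 and 0.699 in TBI+DEIX. The 3 DEIX libraries were the highest of all 12 and the 3 control libraries lay close together. A contrast of DEIX with control alone was not run for the ratios.

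The other genes of the recombination pathway include those that join the cut ends, which all cells use to repair breaks, and Hmgb1 and Hmgb2, whose products assist the cutting. Of 12 such genes, all tested, 1 fell in TBI against control, 3 in DEIX and 3 in TBI+DEIX, where 2 rose, and the list's medians were -0.04, 0.00 and 0.09. These counts stand beside 3.1%, 2.72% and 13.1% of all tested genes called lower and 16.9% called higher in TBI+DEIX, so the rises in TBI+DEIX were no more frequent than over all genes. Polm, a polymerase that fills gaps at joined ends, fell in all 3. It stood at 12.6, 12.4 and 13.6 FPKM in control, 5.86, 6.74 and 6.16 FPKM in TBI, 10.1, 6.71 and 7.35 FPKM in TBI+DEIX and 6.31, 8.07 and 7.82 FPKM in DEIX. Its change in TBI was -0.93 ± 0.14 (limma, adjusted p = 0.00414). On a TPM scale all 3 Polm calls were lost, and with the neutrophil genes listed at 0 removed from that scale the TBI+DEIX call was kept. Xrcc6, which encodes the end-binding protein Ku70, fell in DEIX and in TBI+DEIX by 1.13 ± 0.21 each (adjusted p = 0.0126 and 0.00288), and the ligase gene Lig4 fell in both, while Xrcc4 and Nhej1 rose in TBI+DEIX, calls that were lost on a TPM scale, where 0 genes of the list were called higher.

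Of 12 genes of pre-B and B cell receptor signalling, 2 fell in TBI, 2 in DEIX and 5 in TBI+DEIX, and 0, 1 and 2 rose. Over all genes 3.1%, 2.72% and 13.1% were called lower and 0.891%, 4.52% and 16.9% higher. The rises in TBI+DEIX were thus no more frequent than over all genes. The kinase gene Blk and the inhibitory receptor gene Cd22 fell in all 3, the Cd22 call in DEIX being lost on a TPM scale with the neutrophil genes listed at 0 removed. Blk stood at 13.8, 12.4 and 15.6 FPKM in control, 0.543, 2.01 and 3.09 FPKM in TBI, 0.384, 1.01 and 0.42 FPKM in TBI+DEIX and 1.77, 2.65 and 3.14 FPKM in DEIX, with all treated libraries below control. Cd79a, a signalling chain of the receptor, stood at 113, 90.5 and 122 FPKM in control, 5.07, 50.2 and 60.7 FPKM in TBI, 1.62, 35.2 and 24.6 FPKM in TBI+DEIX and 19.7, 21.7 and 28.7 FPKM in DEIX, and was called in TBI+DEIX (-3.02 ± 0.97, limma, adjusted p = 0.0369) but not in TBI (adjusted p = 0.302) or DEIX (adjusted p = 0.192). The genes that rose, Lyn in DEIX and TBI+DEIX and Plcg2 in TBI+DEIX, are also expressed in myeloid cells. On a TPM scale 0 genes of the list were called higher, and with the neutrophil genes listed at 0 removed from that scale Lyn was called higher in TBI+DEIX. Without TBI+DEIX replicate 1 the list's falls numbered 5 in TBI, 6 in DEIX and 4 in TBI+DEIX, beside 7.2%, 8.48% and 15.3% of all genes.

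Partners of the interleukin-7 and interleukin-2 receptors were called in both directions. Of 12 tested genes 2 fell in TBI, 1 in DEIX and 1 in TBI+DEIX, whereas 0, 2 and 5 rose. Over all genes 3.1%, 2.72% and 13.1% were called lower and 0.891%, 4.52% and 16.9% higher, so the single fall in TBI+DEIX lies under the share of all genes. On a TPM scale 1, 1 and 1 fell and 0, 0 and 2 (Jak3 and Cish) rose, and with the neutrophil genes listed at 0 removed 1, 1 and 1 fell and 0, 0 and 3 (Mcl1 added) rose. Socs1, an inhibitor of cytokine signals, fell in TBI (-0.97 ± 0.14, limma, adjusted p = 0.00321) and in DEIX (-0.83 ± 0.14, adjusted p = 0.00819), and Bcl2, a survival gene, fell in TBI, a call lost on a TPM scale, and in TBI+DEIX. The kinase gene Jak3 rose in DEIX by 1.03 ± 0.25 (adjusted p = 0.0324) and in TBI+DEIX by 1.55 ± 0.25 (adjusted p = 0.0013). On a TPM scale only the second of these was called. Without TBI+DEIX replicate 1 the list's falls numbered 4 in TBI, 1 in DEIX and 2 in TBI+DEIX, beside 7.2%, 8.48% and 15.3% of all genes, so those in DEIX and TBI+DEIX are near the share of all genes. Il2rg, the chain shared by both receptors, stood at 38, 33 and 34.1 FPKM in control and 15.5 to 38.6 FPKM in the treated libraries.

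Among transcription factors of early B cells, 3 of 16 fell in TBI, 6 in DEIX and 11 in TBI+DEIX, beside 3.1%, 2.72% and 13.1% of all genes. Rises numbered 1, 0 and 2, beside 0.891%, 4.52% and 16.9% of all genes, so those in TBI+DEIX were no more frequent than over all genes. The list medians were -1.14, -1.31 and -1.78. That in TBI was -0.66 without TBI replicate 1, and that in TBI+DEIX was -1.24 without TBI+DEIX replicate 1. Ikzf3, Spib and Bach2 fell in all 3 comparisons. Without TBI+DEIX replicate 1 the falls numbered 5, 11 and 11, beside 7.2%, 8.48% and 15.3% of all genes. Without TBI replicate 1 they were 2, 9 and 12, beside 1.55%, 3.27% and 12.8%. Ebf1, a factor that activates Igll1 and Vpreb1, stood at 15.8, 14.5 and 19.2 FPKM in control, 1, 10 and 13.3 FPKM in TBI, 0.0894, 5.9 and 1.46 FPKM in TBI+DEIX and 1.54, 1.89 and 2.77 FPKM in DEIX. Its change was -2.72 ± 0.72 in TBI+DEIX (limma, adjusted p = 0.0162) and -2.52 ± 0.72 in DEIX, where it was not called (adjusted p = 0.0589). Unlike Igll1, Ebf1 was below the control range in every TBI library. Lef1, a factor of pro-B and early T cells, stood at 5.74, 5.14 and 5.78 FPKM in control, 0.611, 8.08 and 11.9 FPKM in TBI, 0.914, 5.31 and 1.48 FPKM in TBI+DEIX and 0.585, 1.2 and 1.35 FPKM in DEIX, above control in the same TBI libraries as Igll1 and called in no comparison.

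**Figure D4:**
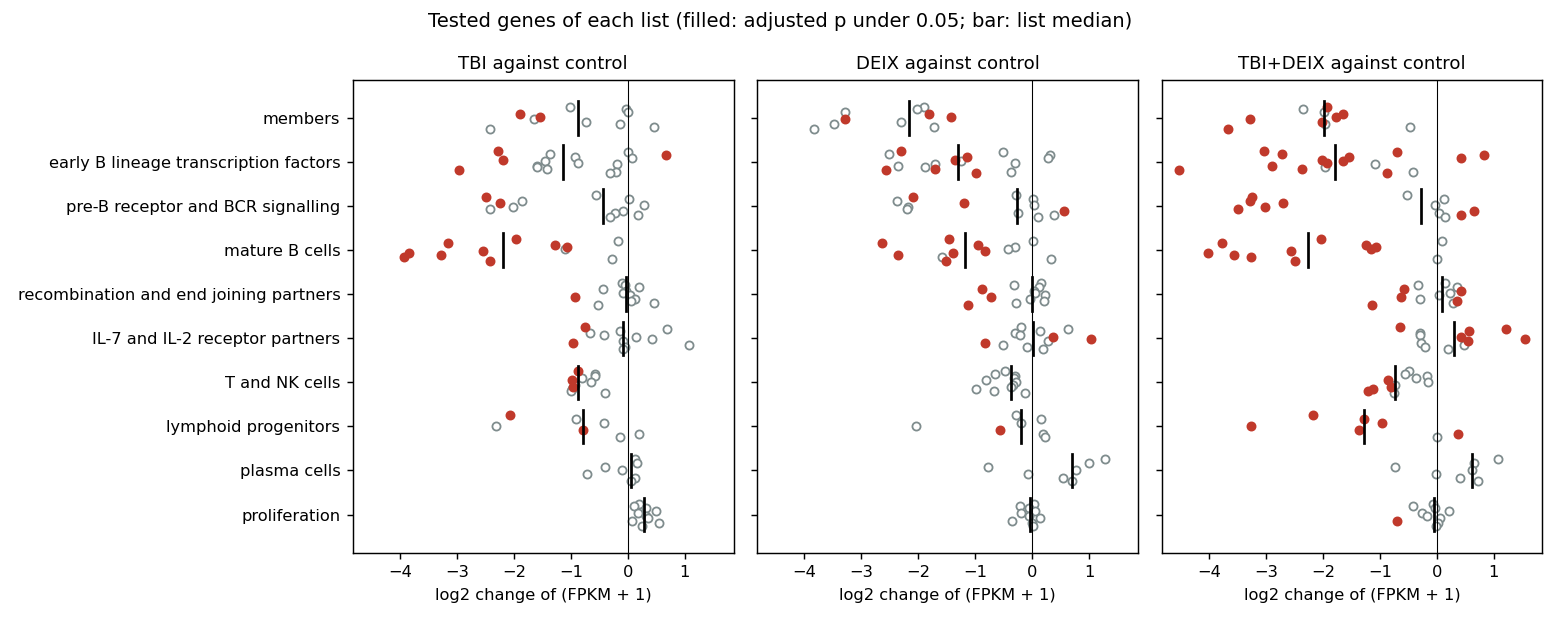
Log2 change of (FPKM + 1) against control for the tested genes of the members and of 9 other lists, with filled circles for adjusted p under 0.05 and a bar at each list's median. Members, early B lineage transcription factors and mature B cell genes lie mostly below 0 in all 3 panels, and end-joining genes lie around 0.

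Likeness of pattern was measured as Pearson's r of log2(FPKM + 1) over the 12 libraries, as a description, since the genes share the libraries and their groups. With the mean of the members, the tested genes most alike were Id3 (r = 0.985), Slamf6 (0.982), Hes1 (0.981), Epb41l4b (0.978) and Bfsp2 (0.977), and Ebf1 was the eighth with r = 0.976. With Rag1 alone they were Akap12 (r = 0.996), Slamf6 (0.994), Ebf1 (0.991), Mmp11 (0.986) and Arntl (0.981). Each member was also set against the mean of the other 9. Rag2 was the most alike (r = 0.978), 8 members had r of at least 0.851, and Il7r (0.774) and Il2ra (0.629) were the least alike.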

How the data were processed

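Total RNA of whole marrow was sequenced with a directional kit, per the labels' protocols. The authors deposited FPKM values for 21853 genes, and the submitters' processing notes name STAR 2.6, Cufflinks 2.2.1 and the mm10 build, with no roles; the annotation is not given in the sources used here. All 21853 gene identifiers matched protein-coding genes of GENCODE vM21, which gave symbols and GRCm38 coordinates; promoters are RefSeq windows on GRCm38.p6. Genes with at least 1 FPKM in at least 3 of 12 libraries (10994) were fitted on log2(FPKM + 1) with limma 3.58.1 in R 4.3.3, 1 mean for each of 4 groups, 8 residual degrees of freedom and moderated variances, with a threshold of 0.05 on p adjusted by Benjamini-Hochberg. The fit was also run on simulated data with set changes, as a check of the code whose result is not given here. The members and gene lists were chosen with earlier results of these data known. Named are all members, genes of the lists that were called in a comparison with libraries free of overlap, and the genes ranked highest by r; Il2rg, Lef1, Foxp3 and Ptcra were named after their values were seen. Alternatives were a pseudocount of 0.1, no filter, a mean of at least 5 FPKM, a TPM scale with and without 3 neutrophil genes listed at 0, only the compared groups, gene-by-gene array weights, the replicate number as a block, and each library left out. The tests on ratios were also run on all pairs of tested genes above 0 FPKM in every library, to give the background share. For the ratios, a pseudocount of 0.1 and each library left out were added after seeing the data.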

Additional observations from a re-analysis of the deposited data

Results flagged for a closer look

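The effect of deinoxanthin on Il2ra differed between irradiated and unirradiated mice by 2.07 on the log2 scale in the test of the interaction (limma, adjusted p = 0.0142). It was drawn out because a difference between the effects in 2 conditions passed its own test. The 3 control libraries (3.87 to 4.49 FPKM) were the only ones above 1.05 FPKM, so the value describes 3 groups that are about equally low.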

How the results depend on the processing

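The 10 genes' changes in 6 comparisons were recomputed in 1172 cases: 1024 kept direction and side of the threshold, 65 lost a call, 46 gained one and 37 changed sign, none of the last from a called value. Il2ra in the 3 comparisons with control, and Rag1 and Il7r in TBI+DEIX against control, kept their calls under each alternative in which they were tested. The causes of the moves below were not tested. Depth limits, among others, Vpreb1, Vpreb2, Rag2, Vpreb3, Igll1 and Rag1 in TBI+DEIX replicate 1 and Vpreb2 in DEIX replicate 1.

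Genes called (TBI, DEIX and TBI+DEIX against control, TBI+DEIX against TBI, TBI+DEIX against DEIX, interaction) numbered 439, 796, 3299, 891, 283 and 22. With array weights they were 4218, 4508, 6187, 4488, 948 and 532, and with only the groups compared 1417, 2057, 2181, 0 and 0. On a TPM scale they were 253, 282, 1785, 157 and 125 for the first 5, and with the genes listed at 0 removed 419 in DEIX against control and 492 in TBI+DEIX against TBI. The TPM scale moved the share of higher calls from 22.3% to 9.49% in TBI, 62.4% to 19.1% in DEIX and 56.2% to 30.6% in TBI+DEIX against control and from 57.9% to 34.4% in TBI+DEIX against TBI, and the median of all genes to -0.12 in DEIX against control and in TBI+DEIX against TBI. With the genes listed at 0 removed from that scale these shares were 16.6%, 48%, 38.6% and 29.5%, and those medians were -0.02 and -0.10. With no filter the counts were 675 in TBI against control and 37 in the interaction, with a mean of at least 5 FPKM 134 in TBI against control, 104 in TBI+DEIX against DEIX and 7 in the interaction, and with a pseudocount of 0.1 the interaction had 11. With 1 library left out the 6 counts ran from 153 to 1337, 146 to 2394, 2004 to 4232, 5 to 2836, 50 to 927 and 4 to 331.

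Members called were 2, 3, 6, 0, 0 and 1. In TBI against control the count was 1 with a pseudocount of 0.1, no filter or either TPM scale, 0 (Il2ra untested) with a mean of at least 5 FPKM, and 4 with array weights, of which Vpreb2 was higher. In DEIX against control it was 1 with a pseudocount of 0.1, no filter, a mean of at least 5 FPKM or TPM with genes listed at 0 removed, and 10 with array weights or only the groups compared. In TBI+DEIX against control it was 3 with no filter, in TBI+DEIX against TBI 2 with array weights, and for the interaction 0 with a pseudocount of 0.1 or a mean of at least 5 FPKM. With 1 library left out it ran from 1 to 2, 1 to 8, 3 to 8 and 0 to 3 in the first 4 comparisons. Called pairs of members ran from 9 to 17 for irradiation and from 0 to 11 for deinoxanthin, and the latter was 3 with a pseudocount of 0.1.

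Values that changed sign with array weights were, in TBI against control, Dntt 0.52, Igll1 0.70 and Vpreb1 0.66, in TBI+DEIX against control Vpreb2 0.41, in TBI+DEIX against DEIX Dntt 0.71 and Blnk 0.45, and in the interaction Dntt 0.18. In TBI+DEIX against DEIX, Rag1 became -0.40 with a pseudocount of 0.1, -0.10 on a TPM scale and -0.20 with genes listed at 0 removed, and Vpreb3 became -0.10 with a pseudocount of 0.1 and -0.03 on a TPM scale with those genes removed. With 1 library left out, sign changes lay within -1.32 to 0.16 (Rag2), -0.65 to 0.94 (Dntt), -0.67 to 1.16 (Igll1), -0.83 to 1.13 (Vpreb1) and -0.01 to 1.34 (Vpreb2) in TBI against control, and -1.33 to 0.30 (Vpreb2) in TBI+DEIX against control. They lay within -2.56 to 0.10 (Vpreb3) and -0.76 to 0.11 (Il7r) in TBI+DEIX against TBI, and -0.70 to 0.63 (Rag1), -0.24 to 0.71 (Rag2), -1.19 to 0.66 (Dntt), -0.89 to 1.52 (Vpreb3) and -0.39 to 0.58 (Blnk) in TBI+DEIX against DEIX. For the interaction they were -1.26 to 0.69 (Dntt) and -0.10 to 1.56 (Vpreb2).

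The labels number the replicates alike in each group. Deviations of same-numbered libraries correlated between -0.45 and 0.24, with 3 of 18 pairs over 0.1. Those of differently numbered libraries ran from -0.37 to 0.50, with 15 of 36 over 0.1. The check showed no sign of pairing, but deviations from means of only 3 libraries cannot exclude it. What the numbers mark is not given in the labels. With the replicate number as a block the gene counts were 378, 640, 3000, 474, 180 and 20 and the members called 2, 7, 7, 0, 0 and 1.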
